A study of Homo sapiens with 15 samples.

Results

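The Prader-Willi region small nucleolar RNAs (snoRNAs) were followed in the MT-2 line, CD4+ T cells that carry and were transformed by human T-lymphotropic virus 1 (HTLV-1). Members were the array clusters whose annotation named a SNORD116 or SNORD115 copy, SNORD64, SNORD107, SNORD108, SNORD109A, SNORD109B, SNRPN, SNURF, SNHG14 or IPW, and clusters with identical values were counted once. The rule found 61 clusters, of which 55 held distinct values, among 28926 clusters on the array. They were 26 distinct SNORD116 clusters, 26 distinct SNORD115 clusters, 1 cluster shared by SNORD64 and PWAR5, 1 shared by SNORD109A and SNORD109B, and 1 for the host transcript SNURF/SNRPN. SNORD107, SNORD108, SNHG14 and IPW had no cluster under these symbols in the annotation used here. Clusters named 29 of 30 SNORD116 copies and 42 of 48 SNORD115 copies in RefSeq.

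All groups were the same MT-2 line, kept for 48 hours with no agent, with ascorbic acid (AA) at 10 µg/ml (low-dose), 50 µg/ml (intermediate-dose) or 100 µg/ml (high-dose), or with 1000 IU/ml of IFN-α. Each group had 3 arrays, 1 under each of 3 tags in the sample labels, 15 arrays in all. The tags hold a date and, for 2 of them, a letter beside the same date. They are called experiments 1 to 3 here, although no label says what they mark or whether the cultures were started separately. P-values therefore measure the spread between these cultures of a single line, which may be partly technical, and with 3 arrays a group precision is limited. Signals are log2 values of an Affymetrix Human Gene 1.0 ST array, which measures transcript clusters and not reads, so a difference of 1 is a doubling. An array cluster cannot tell a mature snoRNA from the intron it is cut out of, and because these samples were bulk cultures, less RNA per cell and fewer cells with the RNA cannot be told apart.

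In the Prader-Willi region of chromosome 15, SNURF/SNRPN encodes a protein of the spliceosome and a small upstream reading frame. Transcription from the paternal chromosome, with RefSeq starts at and upstream of it, runs on into the long noncoding RNA SNHG14. The SNORD116 and SNORD115 copies lie in tandem in introns of that host RNA and are released from it by splicing and trimming. Most box C/D snoRNAs guide fibrillarin to methylate ribose in ribosomal RNA, but SNORD116 has no established ribosomal target, and SNORD115 is known for its match to the serotonin 2C receptor transcript and for being made mainly in neurons. Loss of the paternal SNORD116 copies is linked to Prader-Willi syndrome.

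A start of the host transcript is shown because both snoRNA families are carried by that transcript. The window, from 250 bases before to 50 after the start shared by SNURF and SNRPN, is chr15:24954737-24955036 on the plus strand (RefSeq, GRCh38.p14), and capitals mark its CG dinucleotides, the sites of the maternal methylation that silences this promoter.
SNURF/SNRPN promoter: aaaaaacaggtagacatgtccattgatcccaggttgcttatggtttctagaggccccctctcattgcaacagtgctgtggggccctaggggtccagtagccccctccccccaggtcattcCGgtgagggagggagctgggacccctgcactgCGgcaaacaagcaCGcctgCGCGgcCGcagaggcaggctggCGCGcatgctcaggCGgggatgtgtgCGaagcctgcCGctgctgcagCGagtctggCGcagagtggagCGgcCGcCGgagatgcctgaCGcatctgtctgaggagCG
It held 18 CG dinucleotides, the letters CG being the same on both strands. The windows at other RefSeq starts of SNRPN held 7, 2 and 11, and that of SNHG14, which begins upstream at chr15:24823358, held 9. The median over 34943 promoter windows of the same 300 bases was 14, and 96.0% held at least 1. Promoter methylation was not measured on the array.

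The array of high-dose AA in experiment 3 stood apart from the others. Its mean correlation with the remaining arrays was 0.976 and its SD 2.02, against 0.991 to 0.995 and 2.12 to 2.18 for the other 14. On it, the dimmest 25% of all clusters lay a median 0.23 above the untreated array of its experiment, and the brightest 25% lay 0.19 below. Changes at high-dose AA that it moved by more than 1.5 times are also given without it for most of the members described. Of 7 CD4+ T-cell markers, 5 (CD2, CD4, IL2RA, FOXP3 and CCR4) lay above the array median on all arrays, while ICOS was below the lower quartile on all arrays and CD28 below the median. Of 11 markers of other blood cells, 1, NCAM1, was above the median on all arrays. A cluster is called when its limma p-value, not adjusted, was under 0.001, the threshold in the methods of the study, which name no block. By chance alone that threshold would pass about 28.9 clusters in each comparison. The model used here, with no block, called 75, 9, 6 and 81 clusters for high-, intermediate- and low-dose AA and IFN-α against untreated cells. The study reported more in each of these. With experiment as a random block the counts were 150, 17, 12 and 97, nearer to those of the study.

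SNORD116 signals were lower with high-dose AA than in untreated cells. All 26 distinct clusters had a negative log2 change, with a median of -0.61 and a range from -1.64 to -0.10, whereas the median over all clusters was 0.02 and 45.6% of them were lower. Of the 26, 3 fell past the threshold, SNORD116-29, SNORD116-13 and SNORD116-27, against 0.0691% of all clusters called lower. At an unadjusted p under 0.05, 21 were lower, against 3.62% of all clusters. None passed after Benjamini-Hochberg adjustment over all clusters, where the smallest adjusted p from limma was 0.26, and no cluster of the whole array passed either. All 3 high-dose arrays lay below all 3 untreated arrays in 18 of 26 SNORD116 clusters, against 3.66% of all clusters.

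The calls depended on single arrays. With high-dose AA of experiment 3 left out, only SNORD116-29 was called (background 0.0553% of all clusters) and the median change of the 26 was -0.39, with 25 lower, 11 of them at p under 0.05 against 1.71% of all clusters. Only SNORD116-29 was called without untreated replicate 3 or without experiment 2, and none without experiment 3. Without high-dose AA replicate 1, 6 members were called, against 0.429% of all clusters. SNORD116-29 stayed called with any single array left out, but not without experiment 1 or experiment 3. With experiment as a block, 5 SNORD116 clusters were called (SNORD116-6 and SNORD116-11 besides those 3), against 0.232% of all clusters.

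**Figure D1:**
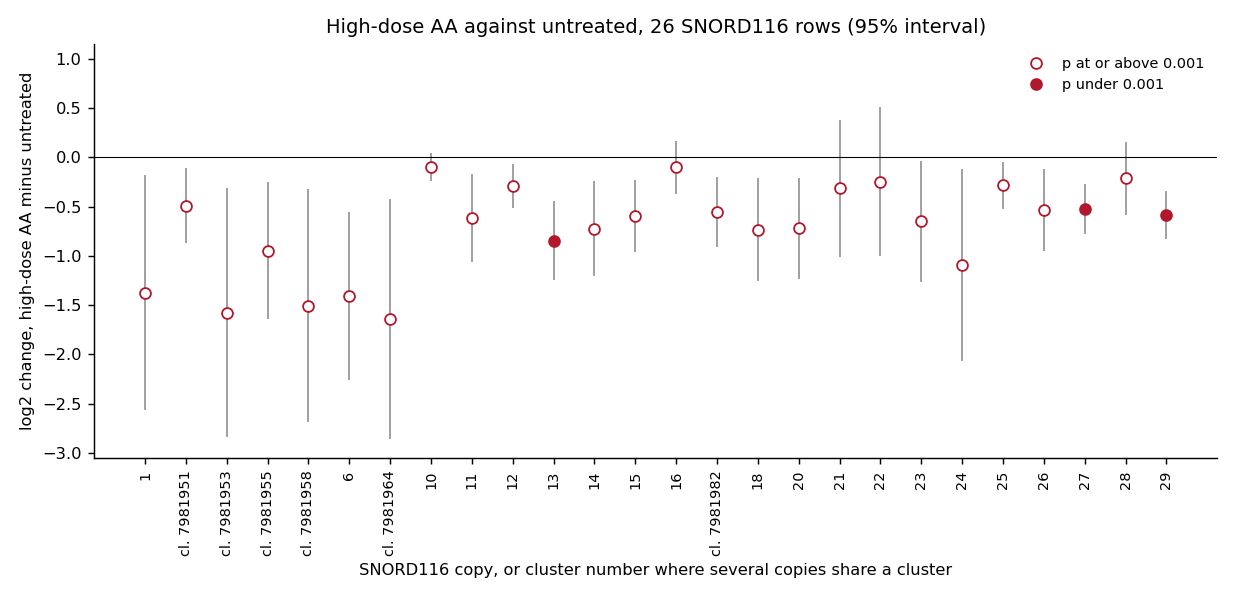
The log2 change of each of the 26 distinct SNORD116 clusters, high-dose AA minus untreated (y axis, log2 units), in order of the clusters on the array (x axis), with 95% intervals from limma and 3 arrays a group. All points lie below 0, the 3 called clusters are filled, and the largest changes and widest intervals belong to copies 1 to 9.

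SNORD116-29 had the smallest p-value. Its signal was 4.68, 4.87 and 4.75 with high-dose AA in experiments 1, 2 and 3, against 5.42, 5.22 and 5.42 in untreated cells. The groups did not overlap, and each experiment showed the same direction. The mean was 4.77 ± 0.10 with high-dose AA and 5.35 ± 0.12 in untreated cells (SD, n = 3 each), a log2 change of -0.58 (SE 0.11) with an adjusted p of 0.26 by limma, and it was called. Without high-dose AA of experiment 3 the change was -0.57 and it was still called. The cluster was dim, below the lower quartile of 12 of the 15 arrays.

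SNORD116-13 had 4.67, 4.16 and 3.71 with high-dose AA, against 5.19, 4.79 and 5.11 in untreated cells. No high-dose value reached the lowest untreated one, but experiment 3 gave the lowest value of all, and the cluster lay below the lower quartile on all 15 arrays. The log2 change was -0.85 (SE 0.19), called, with an adjusted p of 0.35 by limma. Without high-dose AA of experiment 3 it was -0.61 (SE 0.15), past the threshold no longer.

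SNORD116-27 had 5.21, 5.09 and 4.80 with high-dose AA, against 5.28, 5.66 and 5.74 in untreated cells. Experiment 1 differed least, and the groups did not overlap. The log2 change was -0.53 (SE 0.12), called, with an adjusted p of 0.35 by limma, and -0.41 (SE 0.11), not called, without high-dose AA of experiment 3. It was below the lower quartile on 8 arrays.

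The brighter SNORD116 clusters were lower in the same comparison but were not called. SNORD116-15, which had the highest mean signal of the family, read 11.29, 11.45 and 10.74 with high-dose AA and 11.64, 11.83 and 11.81 in untreated cells. All high-dose values lay below all untreated ones, and the log2 change was -0.60 (SE 0.17), with an adjusted p of 0.42 by limma, and -0.39 without high-dose AA of experiment 3. SNORD116-14 read 10.41, 10.60 and 9.48 with high-dose AA and 10.64, 11.04 and 10.98 in untreated cells, a change of -0.73 (SE 0.23), with the same adjusted p, and -0.38 without that array. Cluster 7981982 is shared by the copies from SNORD116-14 to SNORD116-22 and is also annotated to SNRPN. It read 10.59, 10.91 and 10.12 with high-dose AA and 10.86, 11.20 and 11.22 in untreated cells. The highest high-dose value thus exceeded the lowest untreated one. Its change was -0.56 (SE 0.17), again with an adjusted p of 0.42 by limma, and -0.34 without that array. Of the 26 clusters, 7 stayed above the lower quartile of every array, and all 7 were lower, with a median of -0.60 (-0.37 without that array) and none called, while 4 were below it on every array.

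SNORD116-6 showed one of the larger differences. It had 6.67, 5.91 and 4.68 with high-dose AA, against 7.35, 7.04 and 7.10 in untreated cells. The groups did not overlap and the high-dose arrays were widely spread (SD 1.01, against 0.161 in untreated cells). The change was -1.41 (SE 0.40) with an adjusted p of 0.42 by limma, not called, and with experiment as a block (SE 0.31, adjusted p of 0.14 by limma) it was called. Without high-dose AA of experiment 3 and with no block the change was -0.87 (SE 0.31), not called. SNORD116-18 had 4.48, 4.47 and 3.56 with high-dose AA, against 4.45, 5.03 and 5.24 in untreated cells, with the experiment 1 arrays level, a change of -0.74 (SE 0.24) that was not called, and -0.43 without high-dose AA of experiment 3. At the other end, SNORD116-22 had the largest p-value of the family (adjusted p of 0.79 by limma), with 6.0, 5.14 and 4.32 in high-dose AA and 4.77, 5.56 and 5.88 in untreated cells. Its experiments ran in opposite directions, and its change of -0.25 became 0.17 without high-dose AA of experiment 3.

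**Figure D2:**
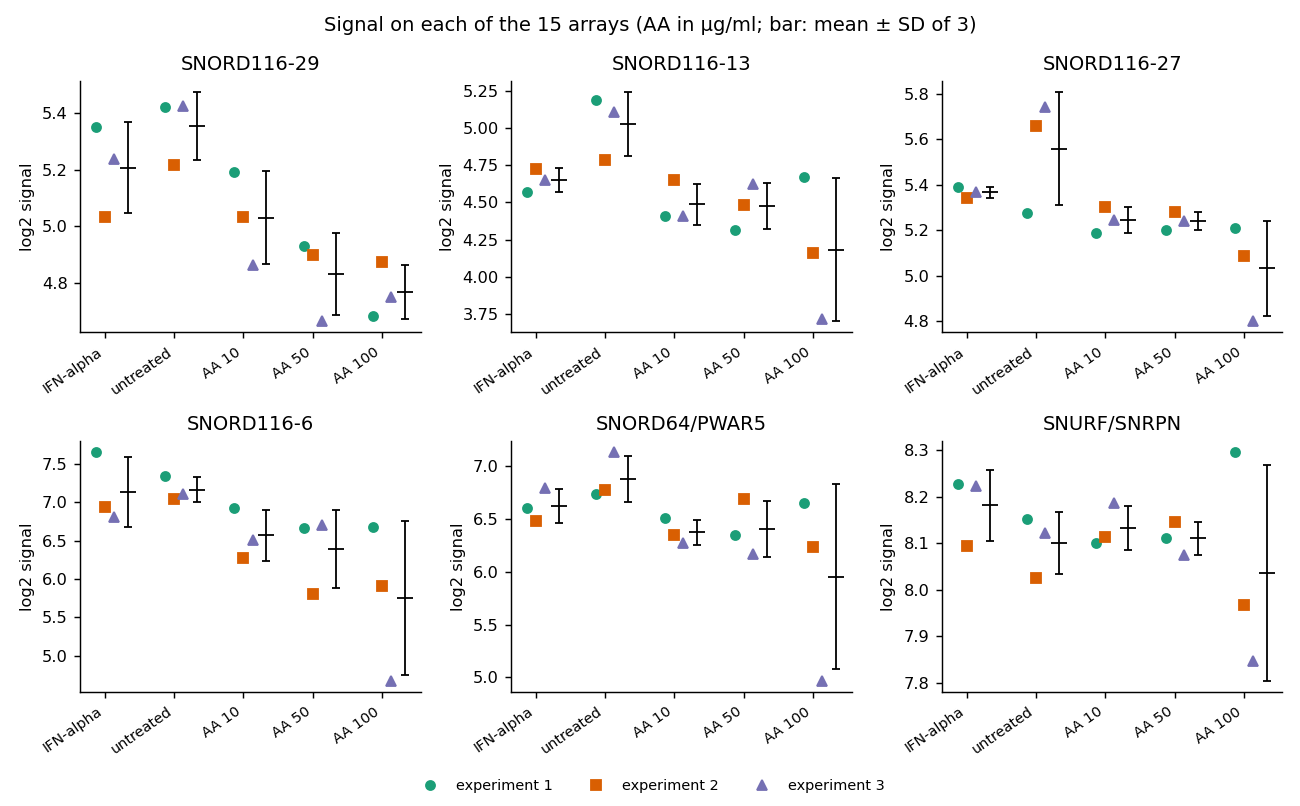
Signal (y axis, log2) of 4 SNORD116 copies, SNORD64/PWAR5 and SNURF/SNRPN on each array by treatment (x axis), with symbols for the 3 experiments and a bar for the mean ± SD of 3 arrays. High-dose AA lies below untreated in all experiments for all panels but SNURF/SNRPN, and in all panels but SNORD116-29 its experiment 3 value is the lowest of the 15.

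The 26 clusters were not lowered evenly. By sequence the copies fall into blocks, 1 to 9, 10 to 24 and 25 to 29, and these were taken here as a description after the values had been seen. At high-dose AA the median change was -1.41 over 7 clusters of copies 1 to 9, -0.61 over 14 of copies 10 to 24, and -0.53 over 5 of copies 25 to 29. In experiment 3 those medians were -3.06, -1.20 and -0.67. They were -0.39, -0.17 and -0.21 in experiment 1, and -0.62, -0.42 and -0.36 in experiment 2. The first block therefore stood apart mainly on the high-dose array of experiment 3, and without it the 3 medians from the fit were -0.57, -0.36 and -0.41. As an example, chosen after its values were seen, cluster 7981953 is annotated to SNORD116-3 and further copies up to SNORD116-9. It read 8.35, 8.02 and 5.23 with high-dose AA and 8.97, 8.64 and 8.72 in untreated cells. Without high-dose AA of experiment 3 its change was -0.59.

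Clusters of the family varied together from array to array. Over 15 arrays the median Pearson correlation between 2 SNORD116 clusters was 0.57 over 325 pairs, of which 314 were positive, and without high-dose AA of experiment 3 it was 0.40. For SNORD115 it was 0.11 with that array and 0.12 without it. Within copies 1 to 9 it was 0.93 with the array and 0.79 without. These correlations are descriptions over arrays that share treatments, experiments and, for several clusters, gene copies.

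The question of a dose course was asked within each experiment, by subtracting the untreated array of the same experiment. In experiment 1 the SNORD116 medians were -0.01, -0.09 and -0.23 at low-, intermediate- and high-dose AA. In experiment 2 they were -0.23, -0.41 and -0.44. In experiment 3 they were -0.53, -0.48 and -1.20. High-dose AA gave the lowest median over the 26 in every experiment, and its medians also spread most between experiments (SD 0.51, against 0.21 at intermediate-dose and 0.27 at low-dose AA). By cluster it was the lowest of the AA doses in 12, 12 and 24 of 26 in experiments 1, 2 and 3. The count of 24 came from the array that stood apart. Over all 28926 clusters the counts were 10505, 8757 and 11097. At low-dose AA 13, 26 and 26 of 26 clusters lay below untreated in experiments 1, 2 and 3.

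**Figure D3:**
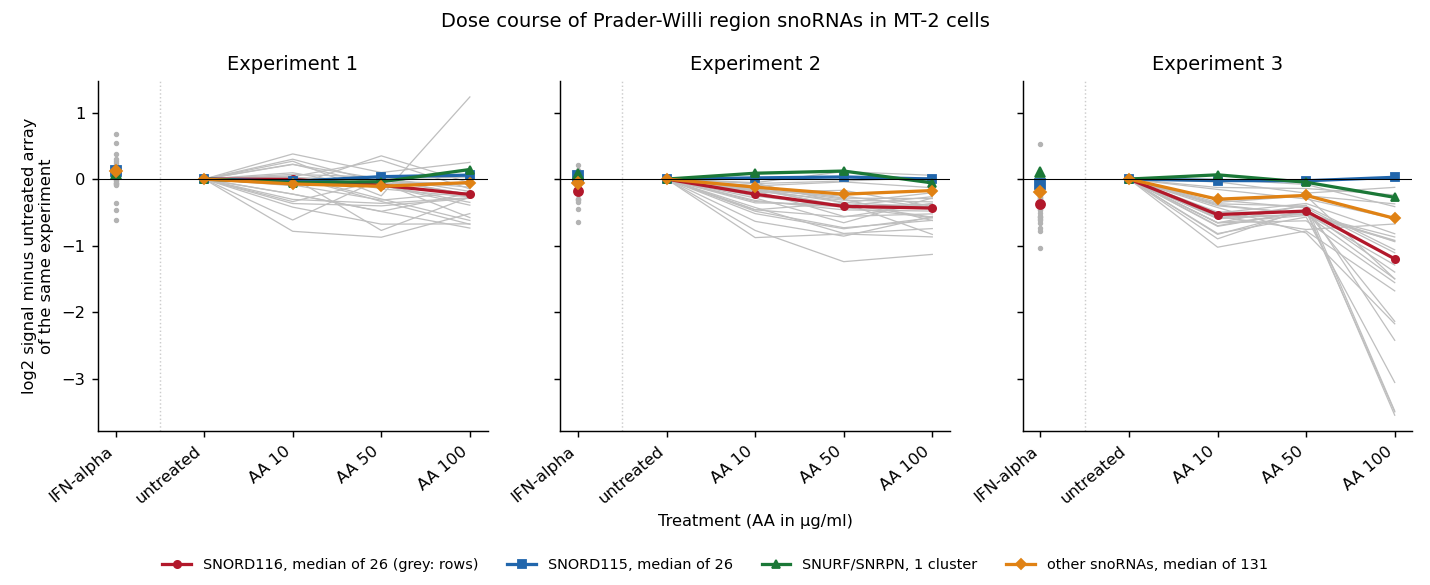
Log2 signal minus that of untreated cells in the same experiment (y axis) for IFN-α and for untreated and 3 AA doses (x axis), a panel per experiment. Grey lines and dots are the 26 SNORD116 clusters and coloured symbols are medians, and SNORD116 lies at -0.23, -0.44 and -1.20 at high-dose AA while SNORD115 stays near 0.

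Counted by cluster, 21 of 26 SNORD116 clusters were below untreated in all 3 experiments at high-dose AA, against 11.4% of all clusters. At intermediate-dose AA this held for 19, against 13.3%, and at low-dose AA for 13, against 13.6%. Among 131 clusters of other snoRNAs the shares were 36.6%, 46.6% and 40.5% at high-, intermediate- and low-dose AA. Those of SNORD116 were 80.8%, 73.1% and 50.0%. In 9 of 26, SNORD116-6, SNORD116-13, SNORD116-27 and SNORD116-29 among them, all 9 AA arrays lay below the untreated array of their experiment, against 3.07% of all clusters. Of the other snoRNAs 19.8% met this rule. None of the 7 SNORD116 clusters that stayed above the lower quartile of every array was among those 9. By dose, 6 of these 7 were below untreated in all 3 experiments at high-dose, 4 at intermediate-dose and 0 at low-dose AA. At low-dose AA in experiment 1 none of the 7 was lower, with a median of 0.10. These counts share the 3 untreated arrays. Signals stepped down at each dose in 2, 9 and 9 clusters in experiments 1, 2 and 3, or 7.69%, 34.6% and 34.6%, against 4.6%, 4.5% and 9.8% of all clusters. For the other snoRNAs the shares were 3.05%, 18.3% and 18.3%.

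At intermediate-dose AA the SNORD116 median change was -0.34, with 25 of 26 lower, and 1 cluster, SNORD116-29, fell past the threshold (background 0.0311% of all clusters). It read 4.93, 4.90 and 4.67 with intermediate-dose AA and 5.42, 5.22 and 5.42 in untreated cells, a log2 change of -0.52 (SE 0.11) with an adjusted p near 1 by limma. That call was lost without untreated replicate 1 (where SNORD116-27 was called), without untreated replicate 3, without intermediate-dose AA replicate 3, and with any of the 3 experiments left out. At low-dose AA all 26 were lower with a median of -0.28, and none was called (background 0.0173%). The lowest p-values there were those of SNORD116-25 (5.02, 5.34 and 5.28 with low-dose AA and 5.36, 5.81 and 5.59 in untreated cells) and SNORD116-18 (3.84, 4.40 and 4.22 with low-dose AA and 4.45, 5.03 and 5.24 in untreated cells). SNORD116-25 was chosen after its values were seen. Without untreated replicate 1, SNORD116-25 and SNORD116-27 were called at low dose, against 0.0277% of all clusters.

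The linear slope on the AA dose, over 12 arrays, was negative for all 26 SNORD116 clusters, with a median of -0.0051 log2 units per µg/ml. None passed the threshold (background 0.0899% of all clusters with a negative slope), and 19 had p under 0.05, against 3.38%. The smallest p-values were those of SNORD116-29 and SNORD116-15, each with an adjusted p of 0.39 by limma and slopes of -0.0049 and -0.0053. With high-dose AA of experiment 3 left out the median slope was -0.0032, with 25 of 26 negative and 8 at p under 0.05, against 1.62% of all clusters, and none was called. With experiment as a block, 3 were called (SNORD116-15, SNORD116-24 and cluster 7981982), against 0.162% of all clusters. With experiment as a random block, 2 were called (SNORD116-15 and SNORD116-29), against 0.135% of all clusters.

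IFN-α gave smaller SNORD116 differences. The median change was -0.17 over 26 clusters, 24 of them lower, and none was called (background 0.00691%). IFN-α called 81 clusters elsewhere on the array, 79 of them higher. By experiment the SNORD116 medians were 0.12, -0.17 and -0.37. In experiment 1, 9 of 26 were below untreated, in experiment 2 24, and in experiment 3 25. In all 3 experiments 7 were lower, against 11.7% of all clusters. SNORD116-29 read 5.35, 5.03 and 5.24 with IFN-α and 5.42, 5.22 and 5.42 in untreated cells, and SNORD116-6 read 7.65, 6.94 and 6.80 with IFN-α and 7.35, 7.04 and 7.10 in untreated cells.

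Set directly against IFN-α, high-dose AA had the lower SNORD116 signal in 25 of 26 clusters, with a median of -0.45. None was called (background 0.449% of all clusters), and 16 had p under 0.05, against 4.15%. Without high-dose AA of experiment 3 the median was -0.20, with 24 of 26 lower and 3 at p under 0.05, against 2.32% of all clusters. By experiment the medians were -0.32, -0.24 and -0.84, and 18 clusters were lower with high-dose AA in all 3 experiments, against 15.3% of all clusters. That count was 69.2% of SNORD116 clusters, and the other snoRNAs had 55.0%. SNORD116-29 had a change of -0.44 (SE 0.11), with an adjusted p of 0.18 by limma, and SNORD116-6 one of -1.38 (SE 0.40), with an adjusted p of 0.27 by limma, and without that array they had -0.43 and -0.84. With experiment as a block SNORD116-6 was called, with an adjusted p of 0.072 by limma (background 0.712%). With experiment as a random block SNORD116-29 was called instead (background 0.612%). In the comparison with IFN-α, SNORD116-29 was called without IFN-α replicate 2 (background 0.436%), and 3 clusters were called without high-dose AA replicate 1, against 0.92% of all clusters. This comparison shares its high-dose arrays with that against untreated cells.

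SNORD115 gave signals close to the floor of the array. All 26 distinct clusters lay below the lower quartile on all 15 arrays, with means from 2.84 to 4.22, so that differences here are between dim values. The median change was -0.03, 0.01 and 0.03 at low-, intermediate- and high-dose AA, and 0.01 with IFN-α. None was called in any of the comparisons. At high-dose AA 17 of 26 were higher, against 54.4% of all clusters and 73.7% of the dimmest 25%, and 3 were lower in all 3 experiments, against 11.4% of all clusters. How small a decrease of SNORD115 RNA these dim clusters could show was not tested.

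The SNORD115 clusters with the smallest p-values were higher with high-dose AA. SNORD115-44 read 3.81, 4.02 and 5.03 with high-dose AA and 3.52, 3.49 and 3.82 in untreated cells, a change of 0.68 (SE 0.24), with an adjusted p of 0.43 by limma, and 0.30 without high-dose AA of experiment 3. SNORD115-25 read 3.48, 3.44 and 4.58 with high-dose AA and 3.24, 3.22 and 3.41 in untreated cells, a change of 0.54 (SE 0.22), and 0.17 without that array. Cluster 7982040, annotated to many SNORD115 copies and SNRPN, read 3.29, 3.26 and 3.80 with high-dose AA and 3.24, 3.04 and 3.18 in untreated cells, a change of 0.30 (SE 0.12), and 0.12 without that array. In all 3 clusters the highest value was that of experiment 3, the array on which dim clusters lay higher in general. SNORD115-40 read 3.07, 2.99 and 3.25 with high-dose AA and 2.83, 2.86 and 2.97 in untreated cells, without overlap, a change of 0.21 (SE 0.08) that was not called, and 0.14 without high-dose AA of experiment 3. SNORD115-24, the brightest of the family, averaged 4.21 ± 0.03 with high-dose AA and 4.25 ± 0.21 in untreated cells (SD, n = 3 each), and SNORD115-33, with the largest p-value, averaged 3.48 ± 0.12 with high-dose AA and 3.47 ± 0.10 in untreated cells (SD, n = 3 each).

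The host transcript SNURF/SNRPN did not pass any test. It read 8.30, 7.97 and 7.85 with high-dose AA and 8.15, 8.02 and 8.12 in untreated cells. The experiments disagreed in direction, and the log2 change was -0.06 (95% interval -0.27 to 0.15), with an adjusted p of 0.82 by limma, and 0.032 without high-dose AA of experiment 3. With low- and intermediate-dose AA it averaged 8.13 ± 0.05 and 8.11 ± 0.03 (SD, n = 3 each), and with IFN-α 8.18 ± 0.08, against 8.10 ± 0.07 in untreated cells. At high-dose AA its difference from untreated was 0.14, -0.06 and -0.27 in experiments 1, 2 and 3, where the SNORD116 medians were -0.23, -0.44 and -1.20. The downstream noncoding transcripts SNHG14 and IPW were not measured under their own symbols, and the probe annotation used here does not say which part of the host RNA the SNURF/SNRPN cluster covers.

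SNORD64, a single-copy snoRNA between SNRPN and the SNORD116 array, shares its cluster with the noncoding RNA PWAR5. It read 6.65, 6.24 and 4.97 with high-dose AA and 6.73, 6.77 and 7.13 in untreated cells. The groups did not overlap, although experiment 1 differed by -0.08 and experiment 3 by -2.16. The change was -0.93 (SE 0.30), with an adjusted p of 0.42 by limma, not called, and -0.44 without high-dose AA of experiment 3. All 9 AA arrays lay below the untreated array of their experiment. With IFN-α it read 6.60, 6.48 and 6.79, a change of -0.26 (SE 0.30). The cluster of SNORD109A and SNORD109B, identical copies at the near and far ends of the snoRNA arrays, read 6.22, 6.44 and 6.49 with high-dose AA and 6.34, 6.41 and 6.51 in untreated cells, a change of -0.04 (95% interval -0.31 to 0.23), with an adjusted p of 0.92 by limma, and -0.093 without high-dose AA of experiment 3.

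Other snoRNAs were lower with AA as well. Over 131 distinct clusters of other SNORD and SNORA genes, which guide ribose methylation and pseudouridylation, 120 (91.6%) were lower with high-dose AA, against 45.6% of all clusters, with a median of -0.29. None was called, and 32 were lower at p under 0.05, against 3.62% of all clusters. With high-dose AA of experiment 3 left out 112 were lower, with a median of -0.14. At high-dose AA their medians by experiment were -0.05, -0.17 and -0.59, each nearer to 0 than that of SNORD116 in the same experiment. In experiment 1 this was reversed at low- and intermediate-dose AA, with -0.07 and -0.11 against -0.01 and -0.09 for SNORD116. In experiments 2 and 3 the SNORD116 medians were the lower ones at those doses too. The lowest p-values were those of SNORD63, SNORD20, SNORD82 and SNORA20, with changes of -0.50, -1.16, -0.64 and -0.96, and of -0.34, -0.86, -0.50 and -0.60 without that array. Their medians at low- and intermediate-dose AA were -0.16 and -0.20, and with IFN-α -0.07. The SNORD112 to SNORD114 clusters, imprinted tandem snoRNAs of another chromosome, were all 6 below the lower quartile of every array, with a median of 0.03 at high-dose AA. A difference between SNORD116 and the other snoRNAs was not tested.

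**Figure D4:**
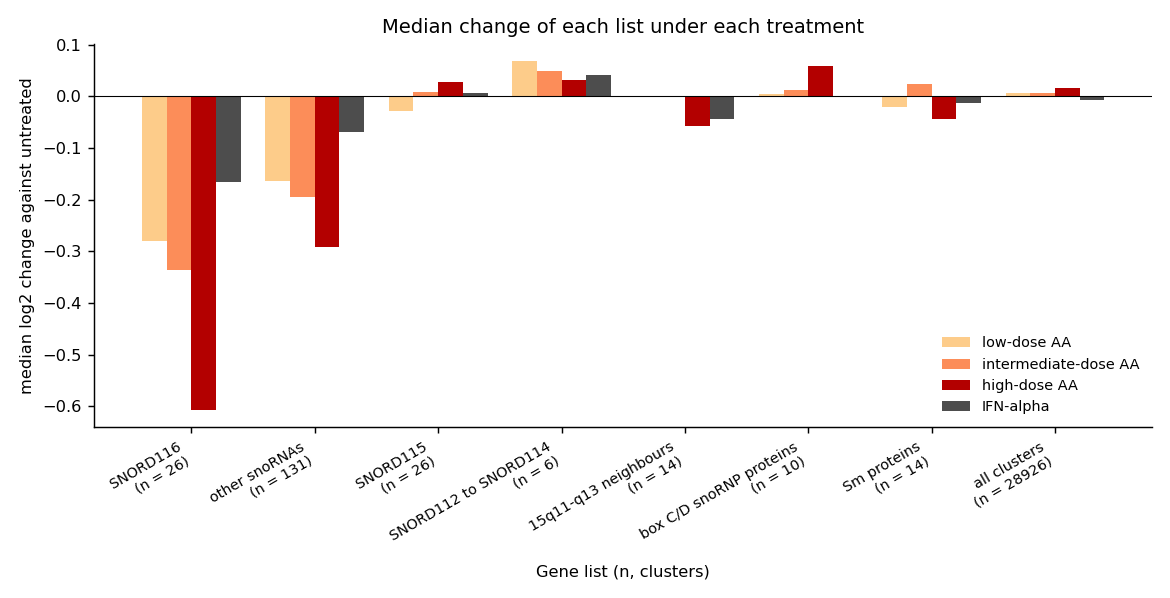
Median log2 change against untreated cells (y axis) of each gene list (x axis, with its number of clusters) for low-, intermediate- and high-dose AA and IFN-α (bars). SNORD116 reaches -0.61 and the other snoRNAs -0.29 at high-dose AA, while the remaining lists stay between -0.06 and 0.07.

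Genes around the snoRNAs and proteins that act with them gave no call in any of the comparisons. The 14 clusters of neighbours in the same imprinted region and its flanks had a median of -0.06 at high-dose AA, 9 of them lower, with TUBGCP5, a part of the microtubule-nucleating complex, at 6.64 ± 0.38 with high-dose AA and 6.92 ± 0.08 in untreated cells (SD, n = 3 each), a change of -0.29 with an adjusted p of 0.47 by limma. Next came CYFIP1, MKRN3 and HERC2, with changes of -0.17, 0.15 and -0.15. The 10 clusters of box C/D snoRNP proteins and their assembly factors had a median of 0.06. NUFIP1, an assembly factor, averaged 9.60 ± 0.11 with high-dose AA and 9.28 ± 0.12 in untreated cells (SD, n = 3 each), a change of 0.32 with an adjusted p of 0.42 by limma. FBL, the methyltransferase fibrillarin, changed by -0.13, NOLC1 by 0.15 and RUVBL2 by -0.11. The 14 clusters of Sm and other U snRNP proteins, the family to which the SNRPN protein belongs, had a median of -0.04. The 2 clusters of SNRPG among them disagreed, at -0.58 and 0.47, while SNRPA1 changed by -0.51 and SNRPB by -0.50. Without high-dose AA of experiment 3, FBL had 0.033, SNRPB 0.014 and TUBGCP5 -0.095, and the medians of the neighbours, the snoRNP proteins and the Sm proteins were -0.014, 0.082 and 0.036. RUVBL2 then turned to 0.06, and NOLC1 had 0.06 and NUFIP1 0.38. The SNRPG clusters had -0.31 and 0.31, and SNRPA1 had -0.25. CYFIP1, MKRN3 and HERC2 had -0.06, 0.05 and -0.06.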

How the data were processed

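MT-2 cells of 5 groups were profiled in 3 experiments on 15 Affymetrix Human Gene 1.0 ST arrays. RNA was isolated with the RNeasy kit, a column method that retains short RNAs poorly. The deposited values are log2 signals that the authors obtained by Robust Multichip Average (RMA) with the xps package, and they were used with no further normalization. Gene names came from the platform annotation, in which 19310 clusters had 1 symbol, 1752 several and 7864 none, and 546 clusters repeated the values of another. Members and lists were chosen with earlier results of these data known.

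A limma (version 3.58.1, R 4.3.3) model with default empirical Bayes was fitted to all 28926 clusters, with 10 residual and 3.9 prior degrees of freedom, and tested on simulated data. Calls needed an unadjusted p under 0.001, and adjusted p-values are Benjamini-Hochberg over all clusters. Differences are the first-named group minus the other. Signals of different clusters are not compared as levels, since probes differ in affinity.

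Named were all members outside the 2 copy families, and, by p-value at high-dose AA, the 8 SNORD116 and 4 SNORD115 clusters with the smallest values, plus the cluster of each family with the largest p-value and that with the highest mean. In each context list the 4 with the smallest p-values were named.

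Samples with the same experiment tag were treated as paired in an alternative, because they share that tag in their titles, although no label says what it marks. Each tag was its own block, also where the same date stands beside different letters. Deviations from the group means had a median correlation of 0.28 over 30 same-experiment pairs, 25 of them over 0.1, and -0.17 over 60 other pairs. Deviations within a group cancel out, so a positive value for same-experiment pairs pushes that for the other pairs below 0. The negative value is therefore no separate evidence of pairing. Other alternatives were array weights, cyclic loess, filters, thresholds and leaving out arrays or experiments.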

Additional observations from a re-analysis of the deposited data

How the results depend on the processing

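The number of members called lower was 3 at high-dose AA, 1 at intermediate-dose AA, and 0 at low-dose AA, for high-dose AA against IFN-α and for the slope. In that order it was 5, 1, 0, 1 and 3 with the replicate block, 3, 1, 0, 1 and 2 with a random replicate block, 8, 4, 3, 6 and 0 with array weights (whose estimation stopped before convergence, and which called 2.57%, 0.18%, 0.166%, 3.23% and 0.124% of all clusters lower), 2, 1, 0, 1 and 2 after cyclic loess, 1, 0, 0, 0 and 0 without the dimmest 25% of clusters, 6, 2, 0, 3 and 5 at an unadjusted p under 0.005, and 0 throughout at an adjusted p under 0.05. The slope count was 2 with doses as ranks, 2 with clusters of 1 symbol and 1 with trended and robust variance, and the 2 groups alone gave 1 at high-dose AA. A replicate block without the high-dose array of experiment 3, chosen after seeing the data, gave 3, 2, 1, 1 and 1. IFN-α against untreated called no member under any setting. Leaving out 1 array or 1 experiment gave 0 to 6 at high-dose AA, 0 to 1 at intermediate-dose AA, 0 to 2 at low-dose AA, 0 to 3 against IFN-α and 0 to 3 for the slope. Different members were called under different settings; SNORD116-27 was the one called without the dimmest 25%, since SNORD116-13 and SNORD116-29 lie in it. The SNORD116 medians moved by less than the spread between experiments under all settings. That spread was wide at high-dose AA (SD 0.51), where the medians by experiment were -0.23, -0.44 and -1.20. It was 0.21 at intermediate-dose AA, 0.27 at low-dose AA and 0.25 with IFN-α, against median changes of -0.34, -0.28 and -0.17. Staying within a spread of that size therefore says little about how stable these medians were. A median of -0.39 without the high-dose array of experiment 3, against -0.61 with it, counted as within the spread. Among named members at high-dose AA, directions turned for SNORD116-22 (-0.99 to 0.41 on leaving out arrays, and 0.28 with the added block), SNURF/SNRPN (-0.19 to 0.043, and 0.042), SNORD115-33 (-0.056 to 0.066, -0.081 with array weights and -0.068 after loess), SNORD115-24 (-0.14 to 0.065) and SNORD109A/B (-0.093 to 0.041), none of them called. The cause of these differences was not tested.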
